A study of Mus musculus with 2 samples.

Results

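H3K27me3 was examined at 8 Wnt ligand genes that lie as 4 linked pairs in the mouse genome, namely Wnt1 with Wnt10b, Wnt6 with Wnt10a, Wnt3 with Wnt9b and Wnt3a with Wnt9a, and at the receptor gene Fzd10. These 9 genes were taken by name from the single deposited table of H3K27me3 regions, and a gene that no row names was counted as having none. Of the 9 genes, 7 were named, with 17 of the 2017 regions and 7 of the 922 genes in the table. H3K27me3 is the trimethyl mark on lysine 27 of histone H3, and chromatin immunoprecipitation sequencing (ChIP-seq) reads the DNA of fragments that an antibody against it pulls down. The material was primary chondrocytes from the ribs of 11 wild-type CD1 mice at postnatal day 2.5. These cells were pooled, kept overnight, with 5% serum by the labels, and harvested from 2 dishes of 10 cm, so that variation between animals cannot be seen. The H3K27me3 ChIP and the input DNA, which was 2% of the chromatin and was not immunoprecipitated, were each sequenced as 1 library. No test between samples is therefore possible, and every interval below is a 95% Clopper-Pearson interval that covers counting error alone.

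Wnt ligands are secreted, lipid-modified glycoproteins that bind Frizzled (Fzd) receptors with Lrp5 or Lrp6. In the canonical pathway this stabilizes β-catenin, which then acts with Tcf and Lef factors on target genes. In cartilage, Wnt signals influence chondrocyte differentiation and maturation to hypertrophy, and they help to specify joints. H3K27me3 is placed by Polycomb repressive complex 2 (PRC2), marks genes held silent, and is often found at promoters rich in CG pairs. The linked pairs are remains of old Wnt gene clusters, so that Wnt10a and Wnt10b, Wnt3 and Wnt3a, and Wnt9a and Wnt9b are related genes that sit in different pairs.

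In RefSeq (GRCm38.p6), both genes of each pair were direct neighbours, with 0 protein-coding genes between them. The genes of 3 pairs were transcribed away from each other, with their 5′ ends facing, while Wnt6 and Wnt10a ran in the same direction. RefSeq promoter windows were matched for 8 of the 9 genes, with Wnt10a not matched. Printed below are the 250 bases before the start of 5 genes, chosen to show both genes of the Wnt1/Wnt10b pair, of which only Wnt1 was named, both of the Wnt3a/Wnt9a pair, and the receptor. Each reads 5′ to 3′ on the strand of the gene, and capitals mark CG pairs. On GRCm38.p6, these stretches are chr15:98789607-98789856 on the plus strand, chr15:98778151-98778400 on the minus strand, chr11:59290752-59291001 on the minus strand, chr11:59306680-59306929 on the plus strand and chr5:128600856-128601105 on the plus strand. The table of regions uses the older build mm9, and positions were not converted between the builds.
Wnt1: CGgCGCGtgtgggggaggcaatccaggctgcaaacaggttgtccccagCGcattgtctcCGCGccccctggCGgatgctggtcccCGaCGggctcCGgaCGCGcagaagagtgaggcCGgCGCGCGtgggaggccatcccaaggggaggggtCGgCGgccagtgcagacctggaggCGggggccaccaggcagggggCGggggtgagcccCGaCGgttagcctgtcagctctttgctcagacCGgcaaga
Wnt10b: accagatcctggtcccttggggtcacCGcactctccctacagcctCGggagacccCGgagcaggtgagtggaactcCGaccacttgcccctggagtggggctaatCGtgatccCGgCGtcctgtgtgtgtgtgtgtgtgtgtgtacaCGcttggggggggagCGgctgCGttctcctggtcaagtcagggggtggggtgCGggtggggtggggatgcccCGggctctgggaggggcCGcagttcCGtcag
Wnt3a: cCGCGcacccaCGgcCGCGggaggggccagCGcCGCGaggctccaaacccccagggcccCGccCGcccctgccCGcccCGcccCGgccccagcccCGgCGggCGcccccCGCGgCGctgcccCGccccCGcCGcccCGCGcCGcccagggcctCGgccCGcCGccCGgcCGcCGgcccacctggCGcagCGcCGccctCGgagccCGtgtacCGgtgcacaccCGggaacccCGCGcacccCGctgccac
Wnt9a: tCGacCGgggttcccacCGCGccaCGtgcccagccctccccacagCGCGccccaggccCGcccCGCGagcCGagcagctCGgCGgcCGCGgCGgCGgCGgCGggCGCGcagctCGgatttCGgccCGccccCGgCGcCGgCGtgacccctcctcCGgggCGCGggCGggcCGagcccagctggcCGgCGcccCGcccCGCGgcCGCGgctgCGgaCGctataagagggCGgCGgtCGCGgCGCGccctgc
Fzd10: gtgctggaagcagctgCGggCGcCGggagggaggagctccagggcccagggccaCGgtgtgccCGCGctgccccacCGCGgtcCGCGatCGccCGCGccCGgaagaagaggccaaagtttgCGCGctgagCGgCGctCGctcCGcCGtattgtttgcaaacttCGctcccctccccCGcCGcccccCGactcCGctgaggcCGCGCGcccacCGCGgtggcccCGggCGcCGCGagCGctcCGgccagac

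These sequences differed in how many CG pairs they held. CG reads the same on both strands, and 1 or more was present in 92.1% of the 32851 RefSeq windows of this length. The median was 6 per window over all genes and 13 over the 765 windows of genes that the table names. Wnt9a held 48, Wnt3a 41 and Fzd10 37, and windows with at least as many made up 0.186%, 1.09% and 2.20% of all windows. The other windows held 28 at Wnt6, 23 at Wnt1, 22 at both Wnt3 and Wnt9b, and 14 at Wnt10b. All 8 members with a window were thus above the median of all genes. Wnt10b, which no region named, had the fewest, but Wnt9b, the other gene without a region, had as many as Wnt3.

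**Figure D1:**
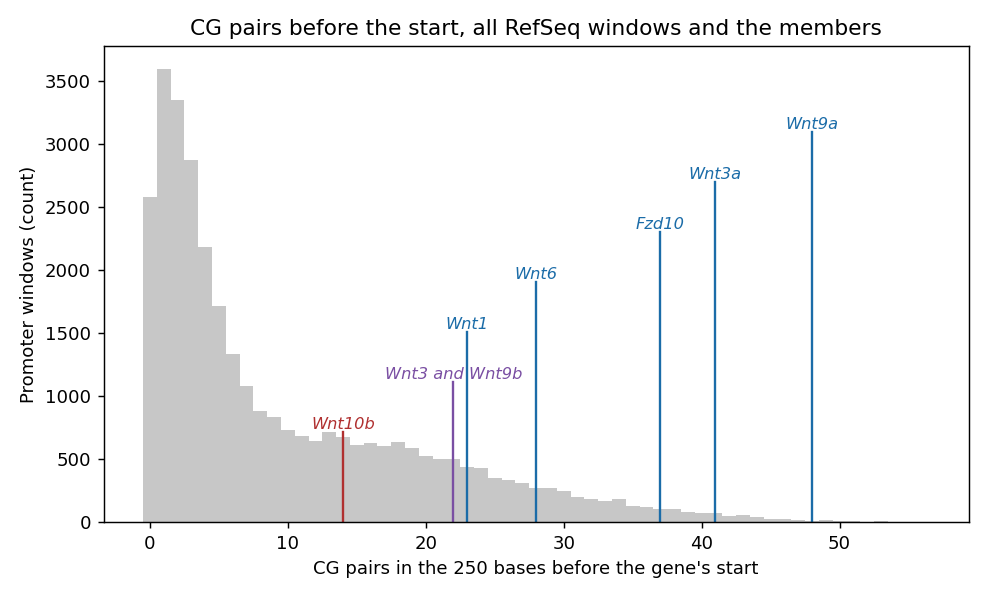
Number of CG pairs in the 250 bases before the start of a gene (x axis) against the number of RefSeq promoter windows (y axis, grey bars, all 32851 windows). Lines mark members, in blue with a region, in red without one, and in violet where Wnt3 (with) and Wnt9b (without) share 22, and the height of a line has no meaning. All 8 members lie above the median of 6.

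Which of the linked genes carried the mark is the first question that the table answers. A region names every gene within 5000 bp, and 204 regions named more than 1 gene. Wnt1, Wnt6, Wnt10a, Wnt3, Wnt3a, Wnt9a and Fzd10 were named, whereas Wnt10b and Wnt9b were not. That is 7 of 9 genes (77.8%), beside 881 of 21900 RefSeq protein-coding genes (4.02%) that the table names. The members were chosen with earlier results of these data known. A high share was thus partly fixed by the choice, and the difference from the background tests nothing. At least 1 gene of every pair had a region, and both genes had one in the pairs Wnt6/Wnt10a and Wnt3a/Wnt9a. No region named both genes of a pair. The pairs that carried regions at 1 gene (Wnt1, Wnt3) were both pairs with facing 5′ ends. The other pair with facing 5′ ends, Wnt3a/Wnt9a, had regions at both genes. A region was listed only with a ChIP profile height of 8 or more, so a weaker mark at Wnt10b or Wnt9b was not detectable. In a bulk sample, a mark on all alleles at a low level and a mark in a part of the cells cannot be told apart.

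The number of regions per gene ran from 4 at Wnt3a and 3 each at Wnt1 and Wnt10a to 2 at Wnt6, Wnt3 and Fzd10 and 1 at Wnt9a. Thus 6 of the 7 named members had 2 or more, beside 36.4% of the 922 named genes, and 3 of 7 had 3 or more, beside 15.9%. These counts depend on how the caller split the mark. Every gap between regions within Wnt1, Wnt6, Wnt10a and Wnt3a was under 3000 bp, and merging regions within that distance left 9 in place of 17. The shares of the named genes are without merging, so the higher shares of the members may reflect splitting. Regions overlapped the gene in 12 of 17 cases (70.6%), near the 65.5% of the 1284 regions that name any gene, and lay upstream of it in 3 and downstream in 2. Within 2500 bp of the 5′ end were 5 of the 17 (29.4%), beside 45.0% of the 1284. All 7 named members had a region that overlapped the gene, beside 63.8% of the named genes. A region no farther than 2500 bp from the 5′ end was present at 3 of the 7 (42.9%), namely Wnt1, Wnt3a and Fzd10, beside 56.1% of the named genes. Positions of 5′ ends on mm9 were worked out from the distances in the table, and no mm9 annotation was used, so exons and introns were not assigned.

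**Figure D2:**
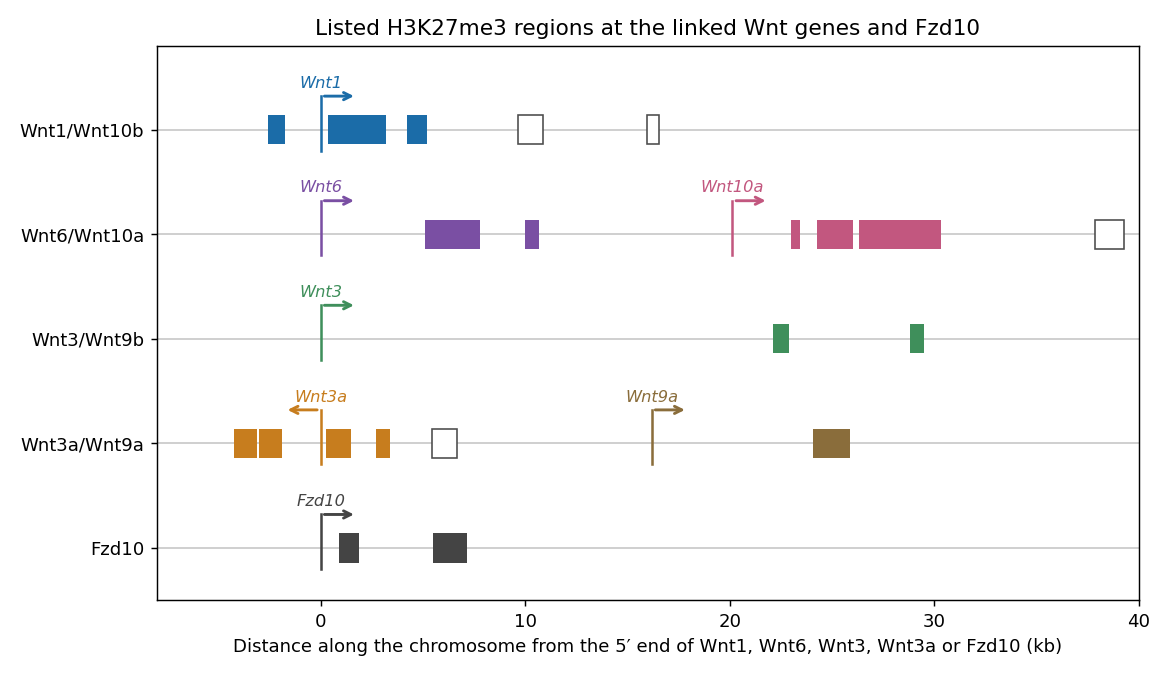
Regions of the table (boxes, drawn to scale) along the chromosome, in kb from the 5′ end of Wnt1, Wnt6, Wnt3, Wnt3a or Fzd10 (x axis), with 1 row per locus. Filled boxes name a member, open boxes name another gene or none, and arrows mark 5′ ends and the direction of transcription. Regions at Wnt1 and Wnt3a lie on both sides of the 5′ end, whereas those at Wnt6, Wnt10a, Wnt3 and Wnt9a begin 2856 bp or more inside the gene. Wnt10b and Wnt9b have no position in the table and are not drawn.

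Wnt1, the founding mammalian Wnt gene, which is needed for the midbrain and also acts in bone, had its mark on both sides of the 5′ end (mm9 chr15, plus strand). Upstream, chr15:98617706-98618530 contained 61 ChIP and 5 input tags and ended 1758 bp before the 5′ end. Within the gene, chr15:98620659-98623498 contained 173 and 16 tags, began 371 bp after the 5′ end and covered 2839 bp, or 71.4% of the gene. Downstream, chr15:98624528-98625464 contained 54 and 18 tags and began 267 bp beyond the 3′ end. The regions thus spanned the whole gene with gaps of 2129 and 1030 bp. The ratios of ChIP to input tags were 12.2 (4.95 to 38.9), 10.8 (6.47 to 19.3) and 3.0 (1.73 to 5.44). The intervals of the first pair overlap, and that of the downstream region lies below the second and overlaps the first. Input reached 19.2 tags per kb in the downstream region, which is 2.09 times the input floor of 9.21 tags per kb that the region caller used, and 1.25% of the 1284 gene-naming regions exceeded 2 times that floor. Without this region the ratio at Wnt1 was 11.1 in place of 7.38. The source of this input was not tested.

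Wnt10b, which favours bone formation over fat formation, lies next to Wnt1 with its 5′ end facing that of Wnt1. The upstream Wnt1 region lies on the side of Wnt10b, yet it did not name Wnt10b and so was more than 5000 bp from it. Beyond Wnt1 on the other side, 2 regions named Ddn, with 65 ChIP and 1 input tags and with 37 and 0. They lay 4490 and 10795 bp from the nearest Wnt1 region, the farther one 15971 bp from the 5′ end of Wnt1. Whether they belong with the mark at Wnt1 was not tested. On the side of Wnt10b, 0 regions were listed within 50000 bp other than the one at Wnt1.

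Wnt6 and Wnt10a, of which Wnt10a is known for its part in teeth and skin appendages, had listed regions only within the gene (mm9 chr1, plus strand). No listed region reached either 5′ end, where a mark with a height under 8 would not have been listed. At Wnt6, chr1:74823587-74826249 contained 115 ChIP and 17 input tags and chr1:74828441-74829152 contained 49 and 4. They began 5121 and 9975 bp after the 5′ end. At Wnt10a, the 3 regions began 2856, 4137 and 6172 bp after the 5′ end, with gaps of only 811 and 275 bp between them. Together these 3 regions covered 6257 bp with 362 ChIP tags, more sequence than 93.6% and more tags than 94.4% of the 922 named genes. The largest of them, chr1:74844765-74848792, was 4027 bp long, held 234 ChIP and 38 input tags and had a deposited rank of 34 of 2017. Among the members this rank followed the q-value. By ChIP height the region stood above 85.8% of all regions. The ratio was 7.81 (4.94 to 13.0) at Wnt6 and 6.24 (4.72 to 8.38) at Wnt10a, and both intervals include the 7.47 of the whole table.

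The 5′ ends of Wnt6 and Wnt10a lay 20127 bp apart, and between the last Wnt6 region and the first Wnt10a region was a stretch of 12297 bp with 0 listed regions. That stretch contains the 5′ end of Wnt10a. Further on, a region that named no gene, chr1:74856330-74857741, held 79 ChIP and 10 input tags at 17737 bp from the 5′ end of Wnt10a. Another, chr1:74882184-74882853, held 34 and 0 tags. Marked sequence thus continued beyond Wnt10a outside the reach of 5000 bp within which a gene is named.

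Wnt3, which is needed to form the primitive streak, had the least marked sequence of the named members (mm9 chr11, plus strand). Its regions, chr11:103657612-103658399 and chr11:103664303-103664962, contained 41 ChIP and 6 input tags and 37 and 0 tags. They lay 22123 and 28814 bp into the gene, farther from a 5′ end than any other region of the members. Wnt3 had 1446 bp in regions, a total that 47.2% of named genes did not reach, and its best rank was 1545. Its partner Wnt9b, which induces kidney tubules, was not named, and 0 other regions were listed within 50000 bp of the Wnt3 regions.

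Wnt3a, a canonical ligand needed for somites and the tail bud, had the most listed regions of the members before any merging (mm9 chr11, minus strand). Inside the gene, chr11:59101237-59102345 contained 50 ChIP and 10 input tags, and chr11:59100005-59101155 contained 62 and 10. Only 82 bp separated these regions, and the first had a ChIP height of 8.01, close to the lowest in the table. Upstream, chr11:59104491-59105747 contained 84 and 14 tags and began 238 bp before the 5′ end, and chr11:59106935-59107642 contained 40 and 0. The 5′ end itself lay in a gap of 2146 bp between them. The upstream region nearest the 5′ end was the strongest of the 4, with a ChIP height of 10.2 and 66.9 ChIP tags per kb, more than 95.2% of all regions.

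Wnt9a, which acts in the formation of synovial joints, had 1 region, chr11:59128314-59130104, with 83 ChIP and 7 input tags. It began 7882 bp inside the gene, and its ChIP height of 8.02 was just over the lowest height in the table, so it was close to not being listed. Facing 5′ ends of Wnt3a and Wnt9a lay 16179 bp apart. In the interval between them, besides both upstream Wnt3a regions, was chr11:59109669-59110924, with 60 ChIP and 4 input tags. It named no gene, since it lay 5416 bp from the 5′ end of Wnt3a and 9508 bp from that of Wnt9a. The listed mark between the facing 5′ ends was therefore on the side of Wnt3a.

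Fzd10, a seven-pass Frizzled receptor that binds Wnt ligands, had a region inside the gene and another downstream (mm9 chr5, plus strand). The first, chr5:129107873-129108870, had 68 ChIP tags against 0 in the input, a ratio whose interval begins at 17.9. It began 892 bp after the 5′ end and covered 33.4% of the gene. The neighbouring gene 5930412G12Rik, 1311 bp away, was named by the same region. The second, chr5:129112465-129114134, contained 73 and 10 tags and began 2497 bp beyond the 3′ end. Of the 2, the first stood higher in the profile, with heights of 11.1 and 8.44, and denser, with 68.2 and 43.7 ChIP tags per kb.

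**Figure D3:**
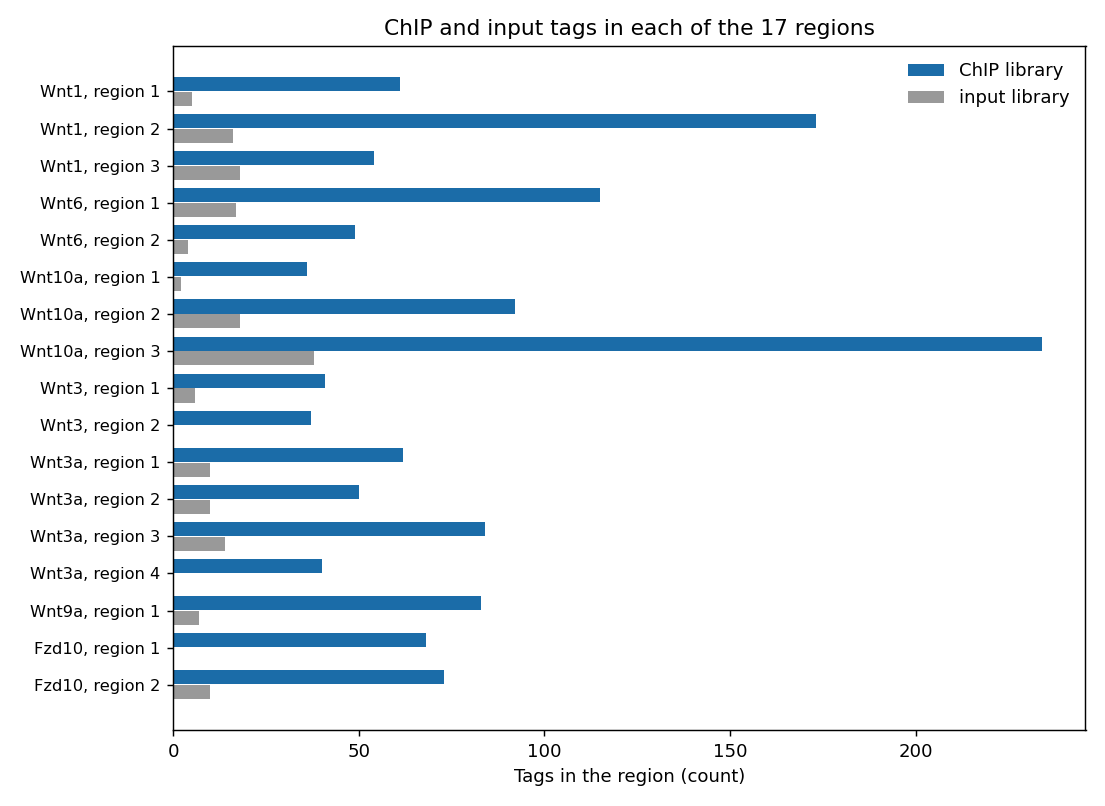
Tags counted (x axis) in each of the 17 regions (y axis, numbered by position along the chromosome within a gene) in the ChIP library (blue) and the input library (grey), without scaling for depth. ChIP tags run from 36 to 234 and input tags from 0 to 38, and the longest bars belong to the third Wnt10a region and the second Wnt1 region.

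Across the 17 regions, the ChIP tags ran from 36 to 234 with a median of 62, beside 59.5 in the 1284 regions that name a gene. Lengths ran from 470 to 4027 bp, with a median of 1108 bp for the members. ChIP tags per kb had medians of 56.6 for the members and 54.5 for the gene-naming regions. By tags and their density the members lay near the middle of these regions. Median ChIP heights were also close, at 8.86 for the members and 8.67 for the gene-naming regions. A height of 10 or more was reached by 6 of 17 (35.3%), beside 12.8% of gene-naming regions. These were at Wnt1 (2 regions), Wnt6, Wnt10a, Wnt3a and Fzd10. Of them, those at Wnt1, Wnt6 and Wnt3a had heights of 10.1 to 10.3, just over the limit, and they include the downstream Wnt1 region with high input. A tag enrichment of at least 7, the deposited ratio of ChIP to input tags, was reached by 4 of 17 (23.5%), beside 4.44% of gene-naming regions. The 4 were 8.31 at Wnt10a, 8.04 at Wnt1, 7.48 at Wnt6 and 7.40 at Fzd10, all in regions shorter than 1 kb and all with the input set to the floor. There the ratio is ChIP tags per kb over a constant, so these 4 values restate ChIP density and do not use the measured input. Regions with 0 input tags numbered 3 of 17, beside 5.22% of gene-naming regions. As regions of 1 gene share their locus and library, they are not replicates.

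**Figure D4:**
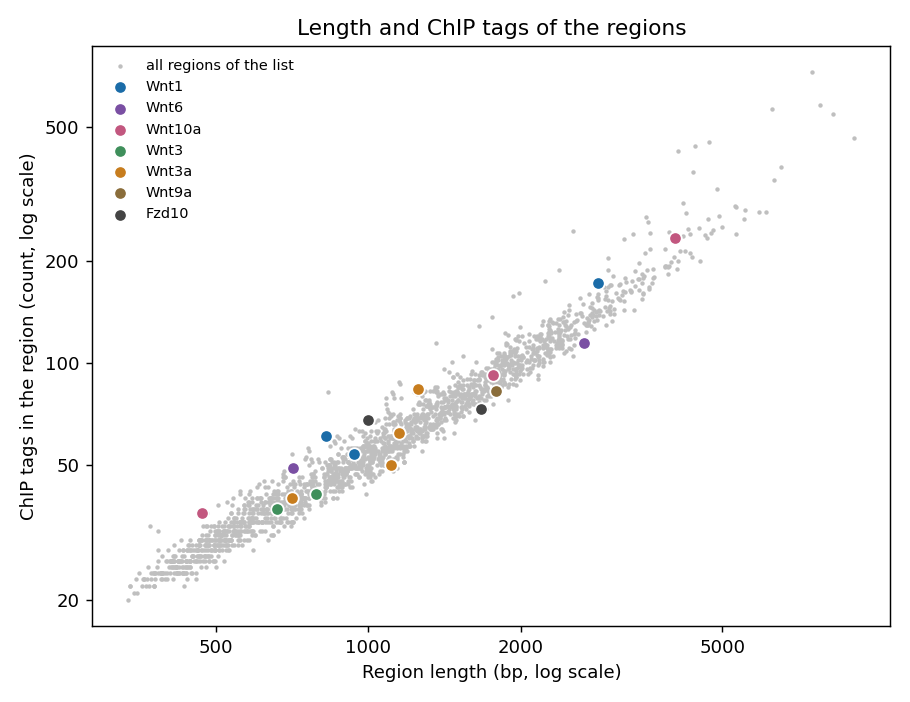
Length (x axis, bp, log scale) and ChIP tags (y axis, count, log scale) of each region, in grey for the 2017 regions of the table and in colour for the 17 regions of the members. The members lie within the band of all regions, with the longest Wnt10a and Wnt1 regions towards its upper end.

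Over all 17 regions, the ratio was 7.73 (6.60 to 9.10) from 1352 ChIP and 175 input tags, beside 7.47 (7.36 to 7.58) in the whole table. No scaling for library depth enters these ratios. In ascending order it was 6.24 at Wnt10a, 6.94 at Wnt3a, 7.38 at Wnt1, 7.81 at Wnt6, 11.9 at Wnt9a, 13.0 at Wnt3 and 14.1 at Fzd10. The intervals of neighbours in this order overlapped, and so did those of the lowest and highest, Wnt10a (4.72 to 8.38) and Fzd10 (7.44 to 30.04). Overlap is not a test of the difference, and none was made between genes. The higher values of the last 3 genes rest on 7, 6 and 10 input tags. With the input as the caller set it, which replaces low counts by the floor, the 5 loci lay closer together, from 5.52 at Wnt3a/Wnt9a to 5.85 at Wnt3/Wnt9b. Since 13 of the 17 regions have their input set to the floor, this closeness says little about the genes.

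**Figure D5:**
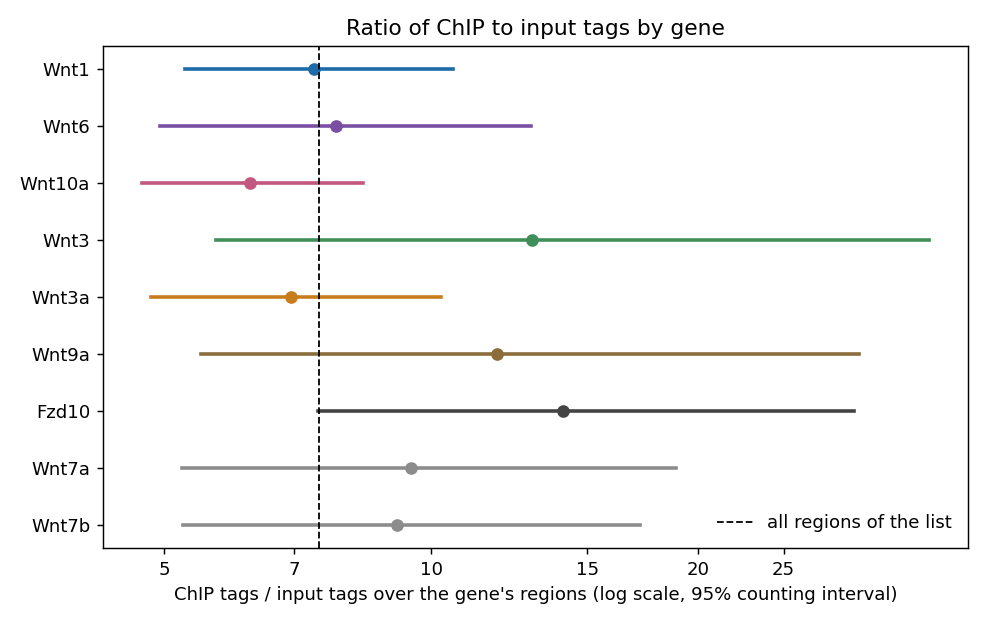
Ratio of ChIP to input tags summed over the regions of each gene (points, x axis, log scale) with the 95% Clopper-Pearson interval (lines), not scaled for depth, for the 7 named members (colours) and Wnt7a and Wnt7b (grey). The dashed line is the 7.47 of the whole table, and it lies within every interval shown.

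The other Wnt genes that the table named were Wnt7a, which patterns the limb from its dorsal side, and Wnt7b. Of the 11 Wnt genes outside the linked pairs, these 2 had a region. Wnt7a had 2 regions with 114 ChIP and 12 input tags, and Wnt7b had 3 with 128 and 14. Their ratios of 9.50 (5.23 to 18.9) and 9.14 (5.25 to 17.2) overlapped those of all 7 named members. Unlike Wnt6, Wnt10a, Wnt3 and Wnt9a, both had a region near the 5′ end, at 674 bp from it at Wnt7a and reaching it at Wnt7b. With the linked pairs, 8 Wnt genes were named, so 6 of the 8 paired and 2 of the 11 unpaired genes had a region. Over all RefSeq protein-coding genes the share was 4.02%. The paired genes were chosen as members with earlier results of these data known, so their higher share partly restates that choice. Whether linkage goes with the mark was not tested.

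Few receptor genes and other genes of the pathway were named. None of the 9 other Fzd genes and none of 7 co-receptor genes were named, so Fzd10 was the only Fzd or co-receptor gene with a region. The same count of 0 held for 2 genes of ligand secretion, 14 cytoplasmic genes and 12 nuclear genes. Of 16 secreted inhibitors, 2 were named. Sost, which encodes the inhibitor sclerostin, had 2 regions with 140 ChIP and 6 input tags, of which 1 lay 20 bp from the 5′ end. Dkkl1, a Dickkopf-like gene, had 1 region with 46 and 6. Of the 9 R-spondin, Lgr and related genes, 2 were named. Rspo1, an enhancer of Wnt signalling, had a region with 52 and 6 tags outside the gene, 4420 bp from it and 27089 bp from its 5′ end. Its ChIP height of 8.01 was close to the lowest in the table. Lgr6, an R-spondin receptor, had a region that overlapped the gene, with 29 and 2 tags at 71756 bp from its 5′ end. In all, 6 of 80 genes of the pathway lists (7.5%) were named, and 4 of 69 (5.80%) without the other Wnt genes, beside 4.02% of RefSeq protein-coding genes. These shares and the counts of 0 in such short lists are near that background. A gene that is not named can still carry the mark at a height under 8, so the zeros do not show that it is absent.

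Of markers of the cell type and of other cells, 0 of 17 chondrocyte marker symbols, among them Sox9, Col2a1 and Acan, were named by a region, which is near the 4.02% of all protein-coding genes. Ihh was named of 4 hypertrophic markers, Pax7 of 3 muscle markers and Col1a1 of 3 fibroblast markers. These counts check neither the cell type nor the makeup of the culture.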

How the data were processed

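The authors mapped reads with the DNAnexus mapper to mm9, the build in the submitters' processing notes, and called regions with QuEST against input. Settings and total depth are not given in the sources used here. The deposited tag counts are whole and not normalized. The deposited signal height is that of the smoothed profile, and it starts at 8.00. The deposited ratio (tag enrichment) sets input to at least 9.21 tags per kb, as found from the values, and this applied in 1552 regions. The q-value is deposited as −log10, with 16.2 the lowest. Deposited gene distances carry no sign. Whether positions count from 0 or 1 is not stated.

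Genes were matched by symbol. A 5′ end was the position that all distances of a gene allow (Wnt9a, with 1 region, also by the RefSeq strand). Of 319 genes with several distances, 304 gave 1 such position. The lengths so obtained for Wnt1 (3974 bp) and Fzd10 (2988 bp) equalled those in RefSeq. Tags were summed over regions, and the ChIP share has a Clopper-Pearson interval, converted to a ratio. Named were all members, pathway genes with a region, and genes that a region near a member names, of which Ddn and the regions without a gene were added after their values were seen. Members and lists were chosen with earlier results of these data known. Precision is set by a median of 56 ChIP and 7 input tags in a region. CG pairs were counted in RefSeq windows (GRCm38.p6), which held 616 of the 922 named genes by symbol. The interval was checked on data simulated at a single ratio and depth, under the same binomial model that it assumes. Regions with fewer tags were not simulated, so this check says little about them. For the 5′ ends, the simulated distances were made by the same rule that recovers them, so that check could not fail. Tools were scipy 1.17.1, pandas 2.3.3 and numpy 2.4.6 under Python 3.11.15, with plots by matplotlib 3.10.9.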

Additional observations from a re-analysis of the deposited data

How the results depend on the processing

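Of 48 recomputed values, 34 stayed within 1.5 times the main count or within the interval of the main ratio, and 14 moved. A q-value limit of 0.01 removed no region and so tests nothing. Limited to 2500 bp around the 5′ end, 3 members and 5 regions were left, and the ratio was 11.1 at Wnt1/Wnt10b and 5.58 at Wnt3a/Wnt9a. With a ChIP height of at least 10, 6 regions at 5 members and 2 pathway genes were left, and the ratio was 5.00 at Wnt1/Wnt10b and 14.2 at Wnt6/Wnt10a. Wnt3 and Wnt9a had no region of that height. With only regions that overlap the gene, the ratio at Wnt1/Wnt10b was 10.8. With input under 2 times the floor required, a limit chosen after seeing the data, it was 11.1, and without the region with the most ChIP tags it was 5.00. The Wnt1 ratio thus depends on the downstream region with high input. Regions within 3000 bp merged gave 9 in place of 17. With input as the caller used it, the ratio was 5.52 at Wnt3a/Wnt9a and 5.74 at Fzd10, because the floor replaces the measured input. For Fzd10 and Wnt3/Wnt9b, no ratio could be had where the regions left held 0 input tags or where no region was left. No paired analysis was possible because each group has 1 library. The depth of 6 to 79 input tags per locus limits every ratio.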
